A study of Mus musculus with 10 samples.

Results

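The 10 genes described here encode the enzymes and inhibitors that remodel the extracellular matrix around fat cells, namely the lysyl oxidases Lox, Loxl1, Loxl2 and Loxl3, the matrix metalloproteinases Mmp2, Mmp14 and Mmp19, and the tissue inhibitors of metalloproteinases Timp1, Timp2 and Timp3. They were chosen by name as a functional family, with earlier results of these data known, and make up 10 of the 41249 gene identifiers in the count tables. RNA of whole interscapular brown adipose tissue (iBAT) depots was sequenced from 5 Axl KO and 5 wild-type (WT) mice, with 1 library per mouse. Both groups were on a high-fat diet (HFD) for 24 weeks, begun at an age of 6 to 8 weeks according to the series record, and differed in genotype. The record does not give their sex, and the paper describes them as males with a slightly longer diet. Axl KO mice carry a constitutive whole-body null allele of the receptor tyrosine kinase AXL, Axl tm1a(EUCOMM)HMGU, in which a "knockout-first" cassette with a splice acceptor, LacZ and a neomycin resistance gene interrupts the transcript. The null allele came from 2 clones of modified embryonic stem cells, and the sources used here do not say which clone the sequenced mice descend from. WT mice were littermate controls without the cassette, from crosses of heterozygous animals.

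Lysyl oxidases are copper-dependent enzymes that oxidise lysines of collagen and elastin, so that the fibres become crosslinked and the matrix stiffens. Matrix metalloproteinases are zinc-dependent enzymes that cut matrix proteins, and TIMPs bind their catalytic site and block them. In adipose tissue these genes are expressed by fibroblasts, adipocyte progenitors, vessel cells, macrophages and adipocytes themselves, and matrix turnover accompanies the growth of fat depots in obesity.

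The disrupted gene separated the groups. Axl transcripts averaged 43.2 ± 5.86 CPM (SD, n = 5) in the WT group, where CPM is the count scaled to library size after TMM normalization, and 1.57 ± 0.647 CPM (SD, n = 5) in the Axl KO group. Total counts ran from 5431014 to 8214841 in Axl KO and from 5952427 to 9580215 in WT mice. The brown adipocyte markers Ucp1 and Cidea were high in the tissue, at means of 4128 and 1745 CPM in WT mice. Of 12 brown adipocyte markers, 10 had a log2 fold change above 0 between Axl KO and WT, with a median of 0.12 and a highest value of 1.67. Of all genes tested, 50.3% were below 0. In edgeR's test, described below, 5 of the 12 had an unadjusted p under 0.05 and were higher in Axl KO, as 4.52% of all genes were. For 2 of the 12 the groups did not overlap, as for 1.36% of all genes. Skeletal muscle genes varied widely between depots, and the summed level of 10 such markers was 21.3 and 4.97 CPM in Axl KO replicates 1 and 2, against 563 to 3660 CPM in the other 8 mice. For whole tissue, fewer cells of a type and less RNA per cell cannot be told apart.

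Of the 10 genes, 9 passed the filter of a mean above 1 CPM and were tested, and Timp1 did not pass. With edgeR's quasi-likelihood test, none of the 9 passed the adjusted p threshold of 0.05, which 1 of 13739 genes (0.00728%), Axl, did. DESeq2 called 0 of the 9 as well, and 0.0655% of all genes. At an unadjusted p under 0.05 there were 3 of the 9 (33.3%), against 8.38% of all genes tested. These were Loxl1 and Mmp19, on the higher side in Axl KO mice, where 4.52% of all genes stood, and Timp3, on the lower side, with 3.86% of all genes. For 1 of the 9 (11.1%), Loxl1, the groups did not overlap, as for 1.36% of all genes tested, and 0.728% had Axl KO above WT. The family was chosen with earlier results known, so these shares describe it and do not test it as a set. The median log2 fold change of the 9 genes was −0.10, beside −0.00078 over all genes tested. In the Axl KO group, 2 of them had a higher estimate and 7 a lower one, while 50.3% of all genes were lower.

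**Figure D1:**
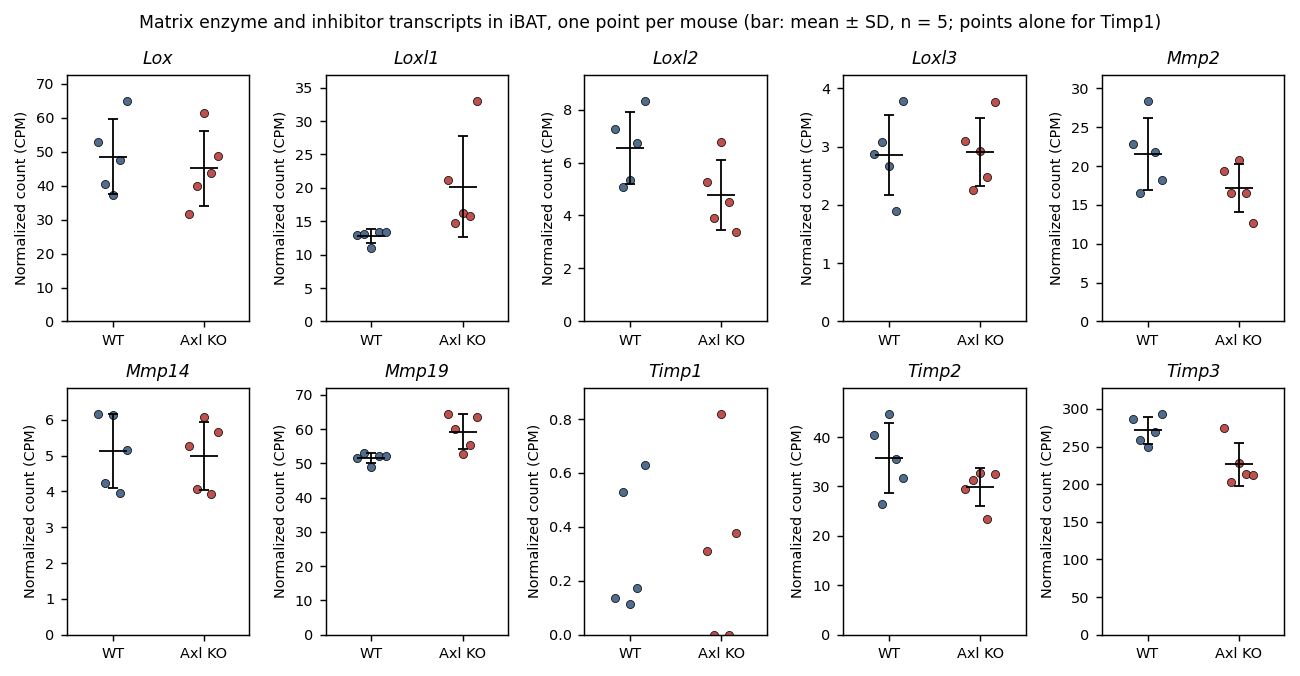
Normalized count in CPM (vertical axis, from 0) of each gene in 5 WT (blue) and 5 Axl KO (red) mice, with 1 point per mouse, and the mean and SD as a bar and whiskers except for Timp1. Loxl1 lies between 14.8 and 33.0 CPM in Axl KO and between 11.0 and 13.4 CPM in WT mice, whereas the groups overlap for every other gene shown.

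The family spans a wide range of transcript levels, compared here as CPM per kb of exon. Timp3 had the highest level in WT mice, 33.4 ± 2.23 CPM per kb (SD, n = 5), or 41.4% of the summed level of the 10 genes. Mmp19 was next at 14.6 ± 0.425 CPM per kb, below Timp3 in all 10 mice. Lox followed at 10.2 ± 2.30, Timp2 at 9.18 ± 1.82 and Mmp2 at 6.40 ± 1.37 CPM per kb, and the ranges of neighbours among these 3 overlapped in WT mice. Loxl1 was at 3.88 ± 0.307 CPM per kb in WT mice, below the range of Mmp2 and above that of Loxl2 in that genotype. Loxl2, Mmp14, Loxl3 and Timp1 had means of 1.21, 0.861, 0.621 and 0.357 CPM per kb in WT mice, and neighbours in this order overlapped. Among the lysyl oxidases Lox was thus the most abundant transcript, among the proteases Mmp19, and among the inhibitors Timp3.

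**Figure D2:**
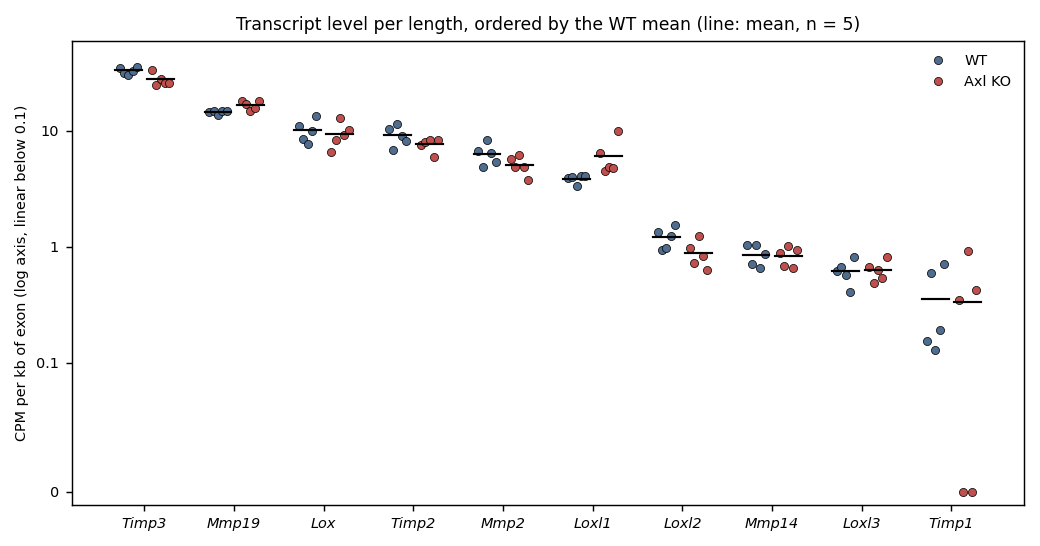
Transcript level as CPM per kb of exon (vertical axis, logarithmic and linear below 0.1) for the 10 genes ordered by their WT mean, with 1 point per mouse (blue WT, red Axl KO) and the group mean as a line. Timp3 leads at 33.4 in WT and 27.8 in Axl KO mice, and Timp1, at the other end, is at 0 in 2 Axl KO mice.

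The inhibitors hold both the most and the least abundant transcript, Timp3 and Timp1, and the sequence before the start sites of these 2 is shown. Whether sequence bears on transcript level was not tested. Of the 10 genes, 4 had an entry in the RefSeq promoter table (GRCm38.p6), Timp1, Timp2, Timp3 and Mmp14. The stretches below run 5′ to 3′ on the forward strand from base 250 to base 41 before the RefSeq start site, which leaves out transcribed bases, at chrX:20869916-20870125 for Timp1 and chr10:86300162-86300371 for Timp3. Capitals mark CG dinucleotides.
Timp1: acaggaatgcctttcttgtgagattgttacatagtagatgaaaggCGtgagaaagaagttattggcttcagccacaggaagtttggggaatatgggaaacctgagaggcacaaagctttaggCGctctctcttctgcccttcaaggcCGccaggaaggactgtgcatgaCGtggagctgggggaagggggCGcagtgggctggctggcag
Timp3: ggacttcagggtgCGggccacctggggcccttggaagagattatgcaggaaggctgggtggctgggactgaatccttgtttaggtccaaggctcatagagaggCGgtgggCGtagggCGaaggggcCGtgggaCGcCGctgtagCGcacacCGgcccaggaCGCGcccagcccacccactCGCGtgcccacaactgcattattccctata
The Timp3 stretch holds 13 CG dinucleotides and 63.8% G or C, and the Timp1 stretch 5 and 53.3%. Of 32519 distinct promoter stretches of the same 210 bases, 24.2% had at least as many CG dinucleotides as Timp3 and 49.8% at least as many as Timp1. Neither stretch holds GGGCGG on either strand (found in 26.9% of the stretches), TGANTCA (5.82%) or TATAAA on either strand (9.49%). The stretches end at base 41 before the RefSeq start site, so motifs closer to it could not be found. In the GENCODE annotation Timp3 starts at base 86300372, right after its stretch, and Timp1 at base 20870166, further past the end of its own. The 2 stretches thus lie at unlike distances from the GENCODE starts.

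Loxl1 (ENSMUSG00000032334, chromosome 9 of GRCm38 from 58287738 to 58313186, reverse strand) encodes a lysyl oxidase that is needed for the upkeep of elastic fibres. Its normalized counts were 21.2, 14.8, 16.2, 15.8 and 33.0 CPM in Axl KO replicates 1 to 5 and 13.0, 13.2, 11.0, 13.4 and 13.4 CPM in WT replicates 1 to 5. Every Axl KO mouse was above every WT mouse, and the spread was wider in Axl KO mice, with a coefficient of variation of 37.6% against 7.92%. Loxl1 was 1.56-fold higher in Axl KO mice (log2 fold change 0.64, standard error 0.20, 95% interval 0.22 to 1.07). The unadjusted p was 0.00640 and the adjusted p 0.572 in edgeR's test, and the two-sided exact permutation test gave p = 0.00794, the smallest that 5 mice against 5 allow. Replicate 5 of the Axl KO mice contributed most, and without it the log2 fold change was 0.41 (adjusted p = 0.645 in edgeR's test, against 0.163 to 0.812 over the 10 fits that left out 1 mouse). Axl KO replicates 1 and 2, with muscle markers summing to 21.3 and 4.97 CPM, were at 21.2 and 14.8 CPM of Loxl1. Replicates 3, 4 and 5, with 563 CPM or more, were at 16.2, 15.8 and 33.0 CPM. With the skeletal muscle list as a covariate, a fit chosen after the data were seen, the log2 fold change of Loxl1 was 0.79. Its unadjusted p was 0.0021 and its adjusted p 0.716 in edgeR's test. The cause of the difference in Loxl1 was not tested.

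Lox (ENSMUSG00000024529, chromosome 18 from 52516067 to 52529867), the founding enzyme of the family, did not follow Loxl1. It ranged from 31.5 to 61.3 CPM in Axl KO mice, with a median of 43.8 CPM, and from 37.2 to 64.9 CPM in WT mice, with a median of 47.5 CPM. The groups overlapped almost throughout, with a log2 fold change of −0.10 (95% interval −0.49 to 0.28), so that a difference of the size seen in Loxl1 lies outside this interval. Loxl2 (ENSMUSG00000034205), which acts on collagen IV of basement membranes, was at 5.26, 3.92, 6.78, 4.52 and 3.39 CPM in Axl KO and at 7.25, 5.09, 5.33, 6.72 and 8.32 CPM in WT mice. In Axl KO replicates 2, 4 and 5 Loxl2 was below every WT mouse, while replicates 1 and 3 lay within the WT range, and the log2 fold change of −0.43 (standard error 0.21, 95% interval −0.87 to 0.02) had an unadjusted p of 0.0596 and an adjusted p of 0.602 in edgeR's test. Loxl3 (ENSMUSG00000000693) was at 2.90 ± 0.588 CPM in Axl KO and 2.86 ± 0.683 CPM in WT mice (SD, n = 5 each), a log2 fold change of −0.0022 (95% interval −0.45 to 0.44) whose sign changed between fits. Its counts are uncertain, since 11.6% of its exon bases overlap Htra2 on the opposite strand, on which 2317 reads were counted against 211 on Loxl3, and the strand setting is not given. Loxl1 made up 24.8 ± 3.14% (SD, n = 5) of the summed lysyl oxidase level per kb in the WT group and 35.6 ± 8.99% (SD, n = 5) in the Axl KO group, with overlapping ranges, while the sum itself was 15.9 ± 2.82 and 17.1 ± 3.39 CPM per kb.

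Mmp19 (ENSMUSG00000025355, chromosome 10 from 128790910 to 128800824, forward strand) encodes a secreted protease that cuts basement membrane proteins. Its levels were 64.3, 60.1, 52.7, 55.4 and 63.5 CPM in Axl KO replicates 1 to 5 and 51.6, 52.9, 49.0, 52.0 and 52.2 CPM in WT replicates 1 to 5. All 5 Axl KO mice were above the WT mean, and the groups overlapped through Axl KO replicate 3 alone. The 1.15-fold difference (log2 fold change 0.20, standard error 0.065, 95% interval 0.057 to 0.34) had an unadjusted p of 0.00976 and an adjusted p of 0.572 in edgeR's test, and p = 0.0159 in the two-sided exact permutation test. The coefficient of variation among WT mice was 2.91%, the lowest of the 10 genes. Of the exon bases of Mmp19, 22.3% overlap Tmem198b on the opposite strand, with 393 reads in all against 3998 on Mmp19.

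Mmp2 (ENSMUSG00000031740, chromosome 8 from 92827291 to 92853420), gelatinase A, was at 19.3, 16.6, 20.8, 16.5 and 12.6 CPM in Axl KO and at 22.8, 16.5, 28.4, 21.9 and 18.2 CPM in WT mice. None of the Axl KO mice exceeded the WT mean. Axl KO replicate 5 was below every WT mouse, and replicate 4 was just below the lowest, WT replicate 2 (16.48 against 16.55 CPM). Axl KO replicates 1, 2 and 3 lay within the WT range. The log2 fold change was −0.32 (standard error 0.16, 95% interval −0.66 to 0.024), with an unadjusted p of 0.0659 and an adjusted p of 0.602 in edgeR's test. Mmp14 (ENSMUSG00000000957), the membrane-bound protease that activates pro-MMP2 on the cell surface, was at 5.00 ± 0.955 CPM in Axl KO and 5.13 ± 1.03 CPM in WT mice (SD, n = 5 each). Its log2 fold change of −0.042 (95% interval −0.44 to 0.36) did not exceed the spread between mice and turned to 0.18 with the fibroblast list described below as a covariate.

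Timp3 (ENSMUSG00000020044, chromosome 10 from 86300372 to 86349506, forward strand), the inhibitor that stays bound to the matrix and also blocks the sheddase ADAM17, was at 274, 204, 228, 213 and 213 CPM in Axl KO and at 287, 259, 250, 270 and 293 CPM in WT mice. In 4 of the 5 Axl KO mice Timp3 was below every WT mouse, and Axl KO replicate 1 lay inside the WT range. The log2 fold change of −0.26 (standard error 0.084, 95% interval −0.44 to −0.080) had an unadjusted p of 0.00837 and an adjusted p of 0.572 in edgeR's test, and p = 0.0317 in the two-sided exact permutation test. Timp3 lies inside Syn3, which is read from the opposite strand, and 116 reads in all were counted on Syn3 against 18254 on Timp3.

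Timp2 (ENSMUSG00000017466, chromosome 11 from 118301069 to 118355740), which both inhibits MMP2 and takes part in its activation by MMP14, was at 29.5, 31.3, 32.8, 23.3 and 32.6 CPM in Axl KO and at 40.5, 26.5, 44.6, 35.5 and 31.8 CPM in WT mice. The 5 Axl KO mice lay below the WT mean but within or near the WT range, and the log2 fold change of −0.26 (standard error 0.14, 95% interval −0.55 to 0.040) had an adjusted p of 0.626 in edgeR's test. Timp1 (ENSMUSG00000001131, chromosome X from 20870166 to 20874735), an inhibitor that is induced in inflamed and fibrotic tissue, was hardly detected. WT replicates 1 to 5 held 1, 5, 1, 1 and 5 reads of it, and Axl KO replicates 1 to 5 held 2, 0, 7, 0 and 2, which makes 24 reads over 10 mice. The 0 counts in Axl KO replicates 2 and 4 allow up to 0.451 and 0.429 CPM, with 3 counts as the limit, for counting error only. A difference in Timp1 between the genotypes was not detectable at this depth.

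**Figure D3:**
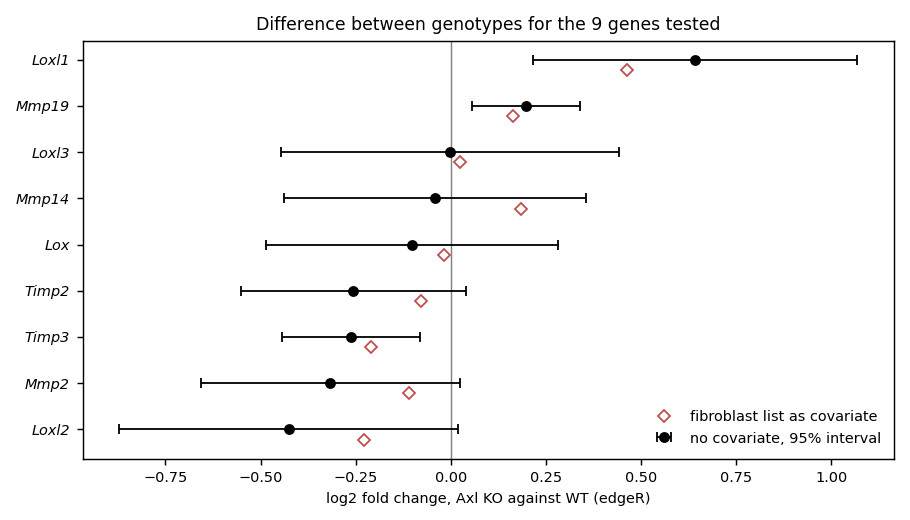
Log2 fold change of Axl KO over WT (horizontal axis) of the 9 genes tested, as edgeR's estimate with its 95% interval (black, n = 5 against 5) and as the estimate with the mean log2 CPM of 14 fibroblast and matrix markers as a covariate (open red diamonds). The intervals of Loxl1, Mmp19 and Timp3 leave out 0, and those of the other 6 genes include it.

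Because inhibitors and proteases act as opponents, their transcript sums were set against each other in each mouse, a quantity chosen after the single genes had been seen and therefore given without a test. The sum of Timp1, Timp2 and Timp3 was 41.6, 33.0, 37.4, 32.1 and 34.9 CPM per kb in Axl KO and 45.8, 39.3, 42.2, 42.4 and 44.8 CPM per kb in WT mice. The sum of Mmp2, Mmp14 and Mmp19 was 22.7 ± 1.32 CPM per kb in Axl KO and 21.8 ± 1.08 CPM per kb in WT mice (SD, n = 5 each). The ratio of inhibitor to protease transcripts was between 1.46 and 1.69 in Axl KO and between 1.81 and 2.13 in WT mice, without overlap. Timp3 supplied 77.6% of the inhibitor sum in Axl KO and 77.8% in WT mice, and Mmp19 supplied 73.8 and 67.0% of the protease sum, so that the ratio mainly reads these 2 genes. With Mmp19 left out of the protease sum, the ratio was 6.13 ± 0.831 in Axl KO and 6.08 ± 1.08 in WT mice (SD, n = 5 each), and the groups overlapped. These are ratios of transcripts, and neither protein nor enzyme activity was measured in these files.

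**Figure D4:**
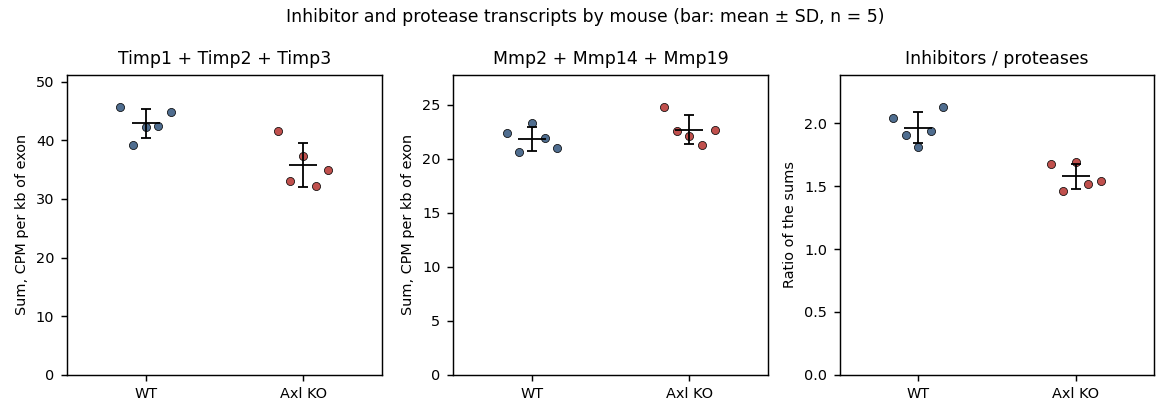
Summed level of the 3 inhibitors, summed level of the 3 proteases (both in CPM per kb of exon) and their ratio (vertical axes from 0) in 5 WT (blue) and 5 Axl KO (red) mice, with 1 point per mouse, the mean and the SD. The ratio stays between 1.46 and 1.69 in Axl KO mice and between 1.81 and 2.13 in WT mice.

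Markers of fibroblasts and matrix were lower on balance in Axl KO mice. Of 14 such genes, none of which belongs to the family, 13 had a log2 fold change below 0 and 1 above, with a median of −0.29. Of all genes tested, 50.3% were below 0. None of the 14 passed an adjusted p of 0.05 in edgeR's test. The unadjusted p was under 0.05 for 2 of the lower genes (Col1a1 and Col1a2) and for the 1 higher gene (Ly6a), as for 8.38% of all genes tested. Their summed level was 686 to 1129 CPM in Axl KO and 919 to 1217 CPM in WT mice. The genes of the family differed in how they varied with this list. Over the 10 mice, the correlation of log2 CPM with the mean log2 CPM of the list was positive for Mmp2 (r = 0.76, permutation p = 0.0106; rho = 0.77, permutation p = 0.0123), Timp2 (r = 0.72, permutation p = 0.0179; rho = 0.60, permutation p = 0.0741) and Loxl2 (r = 0.70, permutation p = 0.0256; rho = 0.72, permutation p = 0.0225). It was also positive for Mmp14 (r = 0.62, permutation p = 0.0613; rho = 0.81, permutation p = 0.00705) and Timp3 (r = 0.58, permutation p = 0.0805; rho = 0.54, permutation p = 0.115), while Lox and Loxl3 had r of 0.25 and 0.071. It was negative for Loxl1 (r = −0.59, permutation p = 0.0666; rho = −0.56, permutation p = 0.0951) and Mmp19 (r = −0.59, permutation p = 0.0724; rho = −0.60, permutation p = 0.0743). Of the 9 correlations, 0 had an adjusted p under 0.05, the lowest being 0.0768 for r (Mmp2, Timp2 and Loxl2) and 0.0554 for rho (Mmp2 and Mmp14). With RLE size factors, the adjusted permutation p of rho for both of these was 0.0492. Without the 2 mice farthest from the median of the list, WT replicate 1 and Axl KO replicate 4, r was 0.81 for Mmp2, 0.43 for Timp2, 0.68 for Loxl2, 0.38 for Mmp14, 0.35 for Timp3, −0.75 for Loxl1 and −0.72 for Mmp19. The genotypes differ in both values, and centred within genotype r was 0.67 for Mmp2, 0.63 for Timp2, 0.55 for Loxl2, 0.69 for Mmp14, 0.32 for Timp3, −0.36 for Loxl1 and −0.33 for Mmp19.

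**Figure D5:**
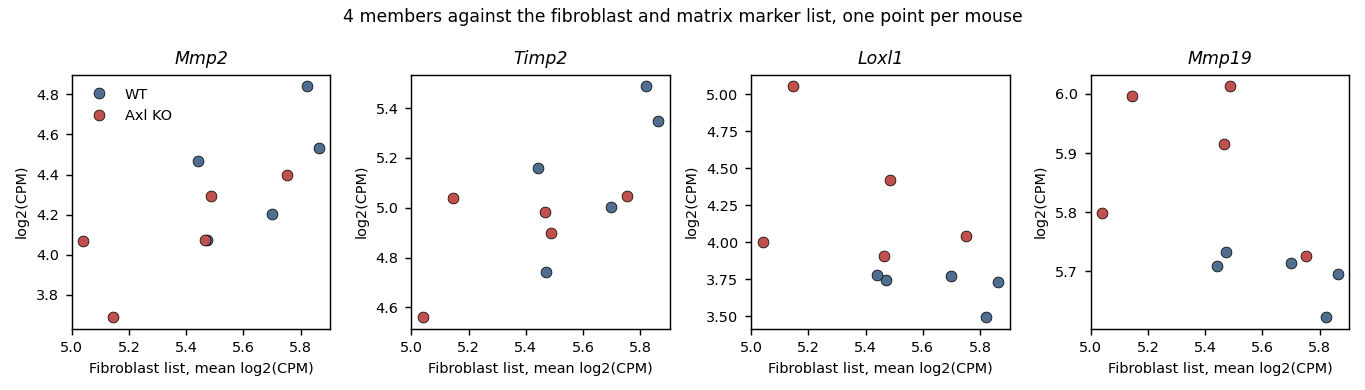
Log2 CPM of Mmp2, Timp2, Loxl1 and Mmp19 (vertical axes) against the mean log2 CPM of 14 fibroblast and matrix markers (horizontal axes), with 1 point per mouse (blue WT, red Axl KO). Mmp2 and Timp2 have r of 0.76 and 0.72, and Loxl1 and Mmp19 have r of −0.59 each, none with an adjusted permutation p under 0.05.

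With the fibroblast list as a covariate in the edgeR fit, the estimates of 7 of the 9 genes came closer to 0, and those of Mmp14 and Loxl3 turned to 0.18 and 0.025. Mmp2 went from −0.32 to −0.11, Timp2 from −0.26 to −0.079 and Loxl2 from −0.43 to −0.23 on the log2 scale. Timp3 went from −0.26 to −0.21 (unadjusted p = 0.0546 in edgeR's test). Loxl1 went from 0.64 to 0.46 and Mmp19 from 0.20 to 0.16, with unadjusted p values of 0.0622 and 0.0573 in the same test. With 5 mice per group, this fit cannot tell the list's part from that of the genotype where the 2 move together.

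The other genes of matrix crosslinking and proteolysis were read from 4 lists with 90 genes in all, of which 63 were tested. None had an adjusted p under 0.05 in edgeR's test, 24 were higher and 39 (61.9%) lower in Axl KO mice, and their median log2 fold change was −0.015. All genes tested were lower in 50.3% of cases. At an unadjusted p under 0.05 there were 8 of 63 (12.7%), against 8.38% of all genes, and their names were chosen after their values were seen. Groups without overlap were found for 1 of 63 (1.59%), against 1.36% of all genes.

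Among enzymes and cofactors of collagen maturation, 7 of 22 tested genes were higher and 15 lower in Axl KO mice. Colgalt1, which attaches galactose to hydroxylysines of collagen, was the gene without overlap. It was at 30.2 to 37.6 CPM in Axl KO and at 38.6 to 41.9 CPM in WT mice, a log2 fold change of −0.25 (standard error 0.068, unadjusted p = 0.00279, adjusted p = 0.572 in edgeR's test). Bmp1 and Tll1, related procollagen C-proteinases, had log2 fold changes of −0.32 (unadjusted p = 0.00855) and −0.90 (unadjusted p = 0.0418), the latter with means of 0.880 and 1.76 CPM. The abundant collagen chaperone Serpinh1, at 168 CPM per kb in WT mice, and the crosslinking transglutaminase Tgm2, at 50.8 CPM per kb, had log2 fold changes of −0.11 and −0.075.

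Of the other lysyl oxidases, MMPs and MMP inhibitors, 9 of 23 genes were tested, and 6 had 0 reads in every mouse. Loxl4 had 29 reads over the 10 mice and Mmp9 52, so both lay below the filter. Timp4, a further inhibitor of MMPs, was the most abundant of them per kb, at 9.55 ± 1.88 CPM per kb in the Axl KO and 8.71 ± 1.88 CPM per kb in the WT group (SD, n = 5 each), near the level of Timp2. Mmp28 followed at 4.27 ± 0.824 and 4.33 ± 0.600 CPM per kb. Reck, a membrane-anchored inhibitor of MMPs, was at 2.91 ± 0.678 CPM in Axl KO and 4.09 ± 0.686 CPM in WT mice, a log2 fold change of −0.47 (unadjusted p = 0.0346, adjusted p = 0.572 in edgeR's test).

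Of the ADAM and ADAMTS proteases, 16 of 24 were tested, with 7 higher and 9 lower in Axl KO mice. Adam9 and Adam10 were the most abundant per kb, at 34.3 and 7.61 CPM per kb in WT mice, and had log2 fold changes of −0.0056 and −0.0076. Adam12, a membrane-anchored metalloprotease, was at 111 ± 25.6 CPM in Axl KO and 78.8 ± 12.9 CPM in WT mice (log2 fold change 0.50, unadjusted p = 0.00935, adjusted p = 0.572 in edgeR's test). Among cathepsins, plasmin and furin-type proteases and their inhibitors, 6 of 16 tested genes were higher and 10 lower. Cst3, the secreted cathepsin inhibitor, and Ctsb, a lysosomal protease, led this list at 387 and 189 CPM per kb in WT mice, with log2 fold changes of 0.028 and 0.12. Plau, the urokinase that turns plasminogen into plasmin, had a log2 fold change of −0.42 (unadjusted p = 0.0461 in edgeR's test). In the same test Serpine2, an inhibitor of urokinase, was at −0.27 (unadjusted p = 0.0166) and Pcsk5, a proprotein convertase, at 0.36 (unadjusted p = 0.0410).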

How the data were processed

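Total RNA of snap-frozen iBAT was extracted with Trizol and made into libraries with the Illumina TruSeq RNA kit. Per the labels the RNA was polyadenylated, whereas the methods text describes rRNA depletion. The submitters' processing notes name Trimmomatic 0.36, STAR 2.6.1c and GRCm38.p5, and the methods text names Trim Galore, hisat2 and GRCm38. The counting tool, strand setting and Ensembl release are not given in the sources used here. The authors deposited 1 table of raw counts per mouse, not normalized and not pooled, for 41249 identifiers, of which 41163 were matched to GENCODE M21 (GRCm38). Genes that overlap on opposite strands are therefore uncertain.

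Counts were compared in R 4.3.3 with edgeR 4.0.16 (TMM, quasi-likelihood test, no covariate) over genes with a mean above 1 CPM, with Benjamini-Hochberg adjustment over all 13739 genes. For single genes, log2 CPM (prior count 2) was permuted exactly over the 252 splits of the mice, two-sided. Correlations used 100000 permutations (scipy 1.17.1), adjusted over the 9 genes tested. CPM per kb divides by the union of exons. No pair of libraries agreed within sampling noise (lowest chi-square per gene 5.04), and every mouse entered as a replicate of its own. The procedure was tested on simulated counts with the same dispersion for every gene and a larger fold change than any in the family. Smaller differences were not simulated. Alternatives were DESeq2 1.42.0, RLE size factors, filterByExpr, no filter, a robust fit, each mouse left out, the replicate number as a block, and 2 marker lists as covariates.

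The family, the lists and the tests were chosen with earlier results of these data known. Named were the 10 genes, Axl, related genes past the threshold or without overlap, the 2 most abundant per kb of each related list, and the 5 genes most like the family. Other names were chosen after their values were seen.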

Additional observations from a re-analysis of the deposited data

Results flagged for a closer look

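Within 20 groups of 5 mice (10 genes in 2 genotypes), 1 had an extreme value set off from its neighbour by more than 0.71 of the whole range of the group, and chance gives about 1. WT replicate 3 had the lowest normalized count of Loxl1 among WT mice, 11.0 CPM, with the nearest at 13.0 CPM. Leaving this mouse out gave Loxl1 a log2 fold change of 0.59 in place of 0.64 (adjusted p = 0.654 in edgeR's test, against 0.163 to 0.812 over the 10 fits that left out 1 mouse).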

How the results depend on the processing

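Under every alternative run, 0 of the 9 genes tested and 0 related genes had an adjusted p under 0.05; the lowest adjusted p of a family gene was 0.144, for Mmp19 without Axl KO replicate 3. DESeq2 called 9 genes in all against 1 in edgeR. Loxl1, Loxl2, Mmp2, Mmp19, Timp2 and Timp3 kept their direction throughout, whereas Lox, Loxl3 and Mmp14, close to 0, did not. Leaving out 1 mouse at a time, the log2 fold change ranged from −0.25 to 0.027 for Lox, from −0.10 to 0.11 for Loxl3 and from −0.13 to 0.035 for Mmp14. The median over the 9 genes ranged from −0.25, without Axl KO replicate 3, to −0.040. With the fibroblast list as a covariate, Loxl3 was at 0.025 and Mmp14 at 0.18. With the skeletal muscle list as a covariate, chosen after the data were seen, Lox was at 0.050, Loxl3 at 0.045 and Mmp14 at 0.096, and the median was 0.045. In the same edgeR fit Loxl1 was at 0.79 (unadjusted p = 0.0021) and Timp3 at −0.31 (unadjusted p = 0.0090). Mmp19 was at 0.16, with an unadjusted p of 0.0618 in that test. The cause of these shifts was not tested.

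Same-numbered mice did not deviate together (correlations of −0.19, 0.37, 0.053, 0.060 and −0.36 for numbers 1 to 5, and 1 of 5 mice correlated best with its own number). With the replicate block 1 gene was called, as without it, 0 of them in the family, and Loxl3 was at 0.023. Depth limits Timp1, Loxl3, Mmp14 and Loxl2, whose reads over the 10 mice numbered 24, 211, 372 and 419.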

Other observations

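Of the marker lists, that of macrophages had the highest median correlation, gene by gene within genotypes, with the mean log2 CPM of the 9 genes tested. Each gene has the same weight in this mean, so it does not measure the amount of RNA from the family. Log2 CPM was centred on each genotype's mean and averaged over the 9 genes tested, and each other gene was correlated with that average over the 10 mice, as a description. The 10 macrophage markers had a median r of 0.77, the 14 fibroblast markers 0.43, the skeletal muscle markers 0.39, the endothelial markers 0.34, the pericyte and smooth muscle markers 0.20 and the brown adipocyte markers −0.45, beside −0.0034 over all genes. The 5 genes most like the family average were Ctsc (r = 0.96, rho = 0.94), a lysosomal protease that activates serine proteases of leukocytes, Gm48998 (r = 0.94, rho = 0.90), Tlr7 (r = 0.93, rho = 0.90), a receptor for single-stranded RNA, Eva1b (r = 0.92, rho = 0.84) and Rps6ka1 (r = 0.91, rho = 0.73), a ribosomal S6 kinase. Without the 2 mice farthest from the median of the average, r was 0.95 for Ctsc and 0.96 for Tlr7. The 10 points share library and depth, and the genes were picked as the highest of all genes tested. Between the genotypes, the median difference of the macrophage markers was 0.0070 on the log2 scale, with 5 higher and 5 lower in Axl KO mice.

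Within the family, centred in the same way, the highest pairwise r was 0.70, for Mmp14 with Timp2, followed by 0.68 for Loxl1 with Mmp19, the pair that was higher in Axl KO mice. The lowest was −0.57, for Loxl1 with Mmp2. The family did not vary as 1 block over these mice.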
